A study of Mus musculus with 20 samples.

Results

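The comparison described here sets mouse cells in which Ddx10 was knocked down against control cells on day 3 of their reprogramming, over the 15757 genes of the deposited table. It rests on 4 of the 20 libraries of the series, chosen by their labels: 2 that carried an shRNA against Ddx10 and 2 that carried an shRNA against luciferase, a firefly enzyme that mouse cells lack. Both arms began as OG2 mouse embryonic fibroblasts at passage 2, infected with retrovirus in 2 rounds and then kept in iCD1, a defined medium, and both received the reprogramming factors Oct4, Sox2, Klf4 and Myc (OSKM). OG2 mice carry a green fluorescent reporter driven by Oct4 regulatory sequence. The other 16 libraries are the same 2 arms at days 0, 1, 5 and 7. The series text calls the replicates biological. No label says that they were separate cultures. The p-values therefore measure a spread between libraries that may be technical, estimated within the groups of all 20 libraries and not from the 4 alone. The labels give 1 kind of Ddx10 shRNA and no rescue, so the loss of Ddx10 and other effects of that shRNA cannot be told apart. RNA came from whole cultures, read as polyadenylated RNA by paired-end sequencing. The normalized read counts of the 4 libraries summed to between 16.25 M and 16.52 M, with 152 to 166 genes at 0. The sums of the series ranged from 15.67 M to 21.26 M, and the values, which are not whole reads, do not give the sequencing depth. All 46 genes of the fibroblast matrix list were measured, and none stayed under 10 in all 4 libraries. That is a weak check of the fibroblast label, since only 4 of 35 epithelial genes stayed under 10 there.

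Ddx10 encodes a helicase of the DEAD-box family, which remodels RNA while the small ribosomal subunit is built in the nucleolus. Fibroblasts that respond to the 4 factors first divide fast and lose their fibroblast genes, then switch on epithelial genes such as those for keratins and E-cadherin, and only later turn on their own pluripotency genes. Day 3 lies in the middle of that course. Genes of cell division are switched on in waves, with replication genes driven by E2F factors before S phase and mitotic genes held back until G2 and then released.

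Ddx10 itself (ENSMUSG00000053289) lies on the minus strand of mm10 chromosome 9, from 53098635 to 53248053, and its level checks the labels. Its normalized read counts were 803 and 841 in the 2 control libraries and 306 and 355 in the 2 knockdown libraries. Both knockdown values lay below both control values, and the log2 fold change was -1.31 (SE 0.12, limma adjusted p = 5.98e-05). Fold changes here are knockdown minus control on the log2(value + 1) scale, which understates the change of low genes. A gene is called where the limma adjusted p, over all genes, is under 0.05.

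**Figure D1:**
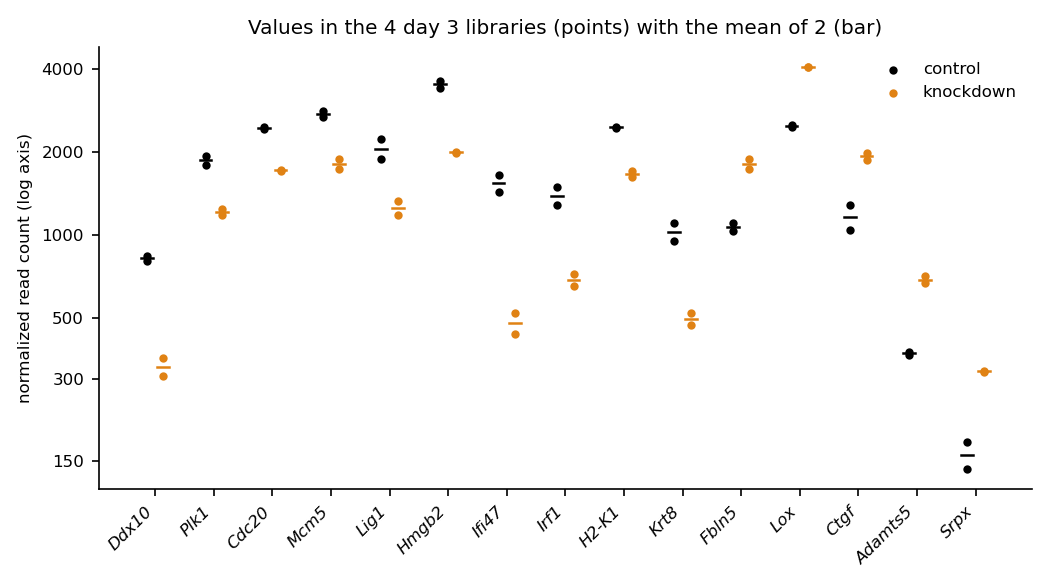
Normalized read counts (log axis) of 15 genes in the 4 libraries of day 3, with control libraries as black points, knockdown libraries as orange points and bars for the mean of 2 libraries. Ddx10, the division genes, Ifi47, Irf1, H2-K1 and Krt8 stood lower in both knockdown libraries, and the matrix genes from Fbln5 to Srpx stood higher in both.

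In the limma fit 751 genes, 4.77% of those tested, were called. Of these 396 (2.51%) were higher and 355 (2.25%) lower in the knockdown, and 3047 had an unadjusted p under 0.05. The changes were mostly small: the median log2 fold change was 0.43 among the higher genes and -0.49 among the lower, and 70 called genes (0.444% of all) changed by at least 1. The groups of 2 did not overlap for any of the 751, nor for 53.4% of all genes. The count fell to 296 without control replicate 1, to 137 without control replicate 2, to 74 without knockdown replicate 1 and to 160 without knockdown replicate 2. All 751 kept their direction in those 4 fits, and 46 were called in each of the 4 (19 higher, 27 lower). The same 46 were called under each of the other alternatives in which they were tested. They are called the stable genes below, a class defined after the values were seen.

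**Figure D2:**
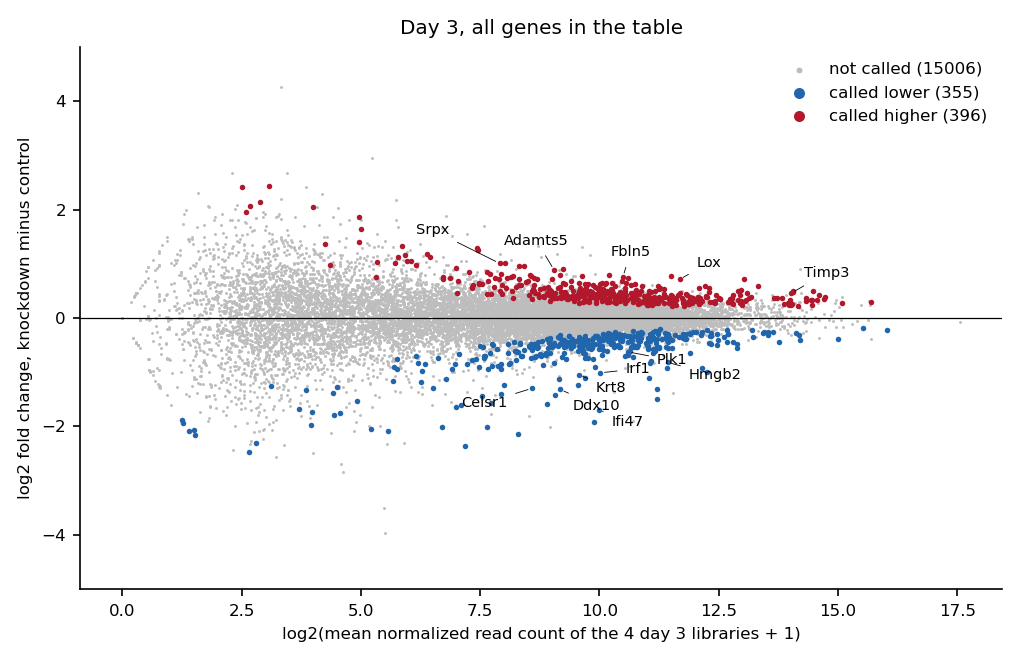
Log2 fold change at day 3 against the log2 mean normalized read count of the 4 libraries, 1 point for each of the 15757 genes. The 396 genes called higher are red, the 355 called lower are blue and the rest are grey, and 12 of the stable genes are named.

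Many genes of mitosis fell. Of 107 measured genes in 5 lists (kinases and cyclins, kinesins, centromere and kinetochore, spindle and anaphase, condensin and cohesin) 40 fell, which is 37.4% against 2.25% of all genes, and none rose. Their median log2 fold change was -0.40 beside 0.02 for all genes, and 105 of the 107 were below 0, against 47.4% of all genes. Without control replicate 1, control replicate 2, knockdown replicate 1 and knockdown replicate 2 in turn, the number that fell was 22, 13, 7 and 17, while the median stayed between -0.43 and -0.36. Fewer dividing cells in the culture and less RNA of these genes per cell cannot be told apart in bulk RNA.

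Plk1, the kinase that drives entry into mitosis and spindle assembly, had normalized read counts of 1798 and 1941 in the control and 1184 and 1242 in the knockdown. The log2 fold change of Plk1 was -0.62 (SE 0.08, limma adjusted p = 0.00142). Cdc20, which activates the anaphase-promoting complex, stood at 2433 and 2469 in the control and at 1728 and 1713 in the knockdown. Its values were close within each arm and apart between them (log2 -0.51, limma adjusted p = 0.00348). Cdca3, which helps to trigger mitotic entry, was at 1187 and 1136 against 691 and 691 (log2 -0.75, limma adjusted p = 0.00212). The other stable mitotic genes were Cdca5, the cohesin protector sororin (log2 -0.59), Kif22, a chromosome-arm kinesin (-0.55), and the centrosome kinase gene Nek2 (-0.54). Further falls were those of Nusap1, a spindle microtubule protein (-0.69), the spindle motor gene Kif11 (-0.61), the kinase gene Aurka (-0.60) and the condensin gene Ncapd2 (-0.55). Those calls were lost without knockdown replicate 1 (limma adjusted p = 0.0706 for Nusap1, 0.1 for Kif11, 0.0514 for Aurka and 0.0668 for Ncapd2), and also without control replicate 2 for Kif11 (0.0816) and control replicate 1 for Ncapd2 (0.0531). Cdk1, the central mitotic kinase, was at 1496 and 1251 against 1463 and 1239, with overlapping arms and a log2 difference of -0.02. The kinetochore gene Zwint lay above 0 (log2 0.20, limma adjusted p = 0.0598).

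Within the mitotic lists, centromere and kinetochore genes had 2 calls among 29, although their median of -0.37 was near that of the other lists (-0.42 to -0.34). Several large structural genes differed more between the 2 control libraries than between the arms. Cenpf, a kinetochore protein, was at 514 and 1595 in the control and at 622 and 668 in the knockdown. The proliferation marker Mki67 was at 3774 and 8424 against 4066 and 4358, and the kinetochore motor Cenpe at 736 and 1911 against 844 and 990. In each of the 3, which were picked after their values were seen, control replicate 2 stood far above control replicate 1 and the arms overlapped. The cause was not tested.

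The promoters of 3 of these genes are shown because a pair of short motifs known from mitotic promoters recurs in the group. The 300-base windows end 50 bases after the RefSeq start (GRCm38.p6), 5′ to 3′ on the strand of the gene, with matches in capitals. They lie at chr7:122159185-122159484 for Plk1 (plus strand), chr6:124829926-124830225 for Cdca3 (plus) and chr4:118437294-118437593 for Cdc20 (minus). The capitals TTTGAA mark the cell cycle homology region (CHR), and CCAAT or its reverse ATTGG marks the CCAAT box.
Plk1: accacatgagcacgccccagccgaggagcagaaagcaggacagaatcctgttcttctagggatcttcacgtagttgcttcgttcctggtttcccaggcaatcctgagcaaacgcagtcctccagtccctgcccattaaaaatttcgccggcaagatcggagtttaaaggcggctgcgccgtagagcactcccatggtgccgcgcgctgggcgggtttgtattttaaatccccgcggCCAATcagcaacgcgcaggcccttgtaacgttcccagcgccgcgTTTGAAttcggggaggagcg
Cdca3: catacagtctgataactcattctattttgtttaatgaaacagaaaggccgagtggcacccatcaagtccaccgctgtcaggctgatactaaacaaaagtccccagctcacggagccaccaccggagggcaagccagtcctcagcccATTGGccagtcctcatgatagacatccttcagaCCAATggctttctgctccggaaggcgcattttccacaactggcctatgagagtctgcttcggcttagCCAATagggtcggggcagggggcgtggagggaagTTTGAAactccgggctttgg
Cdc20: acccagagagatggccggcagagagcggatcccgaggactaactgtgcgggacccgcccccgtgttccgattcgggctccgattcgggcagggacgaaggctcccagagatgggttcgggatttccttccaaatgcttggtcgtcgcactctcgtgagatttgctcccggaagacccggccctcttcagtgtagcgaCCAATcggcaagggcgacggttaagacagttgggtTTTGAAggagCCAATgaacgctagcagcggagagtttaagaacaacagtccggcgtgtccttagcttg

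The CHR match begins at base 281 of the 300-base window in Plk1 and in Cdca3 and at base 233 in Cdc20, counted from the 5′ end, and in each window a CCAAT box lies upstream of it. Searched on both strands, the CHR (TTTGAA or TTCGAA) was found in 73.5% of the 34 promoters of mitotic genes that fell (25 promoters), and in 14.1% of 14488 promoters of all genes tested. The CCAAT box was found in 70.6% of those 34 and in 37.4% of all. Over all measured mitotic genes, called or not, the shares were 65.3% and 68.4%. These are matches of letters, not sites of binding, and RefSeq promoters were matched for 11344 of 15735 symbols.

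DNA replication genes fell as well. Of 71 measured S phase genes 25 fell (35.2%, against 2.25% of all genes) and none rose, with a median of -0.37 and 68 below 0. Leaving out control replicate 1, control replicate 2, knockdown replicate 1 or 2 gave 10, 6, 3 and 9 falls, with medians between -0.37 and -0.34. Origin licensing and firing had 10 falls among 25 genes, the replication fork 7 among 26, chromatin copying 6 among 10 and nucleotide supply 2 among 10. Mcm5, a subunit of the replicative helicase, was at 2823 and 2676 in the control and at 1733 and 1891 in the knockdown (log2 fold change -0.60, SE 0.09, limma adjusted p = 0.00212). Mcm7 of the same helicase was at 3315 and 3027 against 2134 and 2254 (log2 -0.53, limma adjusted p = 0.003). Lig1, the ligase that joins Okazaki fragments, was at 1885 and 2228 against 1179 and 1329 (log2 -0.71, limma adjusted p = 0.00145). In all 3 genes both knockdown libraries lay below both controls, as in every gene called lower, and all 3 were stable. So was Cdca7, a chromatin remodelling partner of the S phase outside the lists (log2 -0.76). The histone chaperone gene Nasp (-0.62), Mcm2 (-0.46) and Samhd1 (-0.83), an enzyme that breaks down nucleotides, fell too. Each of those 3 calls was lost without knockdown replicate 1, at a limma adjusted p of 0.0706, 0.0646 and 0.0548. The DNA methylation reader Uhrf1 (-0.53) and the polymerase clamp gene Pcna (-0.37) fell, but lost their calls without control replicate 2 (0.0555 and 0.0629), knockdown replicate 1 (0.0549 and 0.0605) or 2 (0.0569 and 0.0766). Orc1, a subunit of the origin recognition complex, overlapped between the arms at 216 and 190 against 199 and 235.

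The Mcm7 promoter is shown as an example of the E2F-like motif, known from replication genes, at chr5:138171834-138172133 (minus strand; GRCm38.p6, RefSeq). Capitals mark matches to TTCCCGC or TTGGCGC or to the variants TTCGCGC and TTGCCGC, on either strand, and a pair of them overlaps near the start.
Mcm7: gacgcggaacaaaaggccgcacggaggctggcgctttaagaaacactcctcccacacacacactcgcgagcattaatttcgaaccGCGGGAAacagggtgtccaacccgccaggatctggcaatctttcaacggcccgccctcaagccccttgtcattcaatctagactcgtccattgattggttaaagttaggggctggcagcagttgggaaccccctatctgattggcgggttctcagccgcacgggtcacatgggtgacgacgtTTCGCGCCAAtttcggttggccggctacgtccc
An E2F-like match was found in 55.6% of the 27 promoters of S phase genes that fell and in 15.4% of all promoters. The share over all measured S phase genes was 53.5%. In the promoters of mitotic genes that fell it was 23.5%, while the CHR was found in 14.8% of those of S phase genes that fell.

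Beyond the lists, Hmgb2, a chromatin protein abundant in dividing cells, was at 3417 and 3639 in the control and at 2006 and 1992 in the knockdown. Its log2 fold change of -0.82 (SE 0.08, limma adjusted p = 8.07e-05) was among the best measured of all falls. Lmnb1, which encodes lamin B1 of the nuclear lamina, fell by 0.55 on the log2 scale and was stable. Of 23 genes of homologous recombination and Fanconi repair 2 fell (8.7%, against 2.25% of all genes), Rad54l (-0.64) and Brca1 (-0.52), with a list median of -0.35. Neither kept its call with any 1 of the 4 libraries left out (limma adjusted p = 0.0567 to 0.1 for Rad54l and 0.113 to 0.221 for Brca1).

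The regulators of the cycle did not move as 1 group. Among 32 of them 6 fell (18.8%, against 2.25% of all genes) and 2 rose (6.25%, against 2.51%), with a median of -0.10. Without control replicate 1 the number that fell was 4, and it was 1 without any other library of day 3. The cell cycle inhibitor gene Cdkn1b, which encodes p27, fell from 998 and 1186 to 643 and 660 (log2 fold change -0.74, SE 0.11, limma adjusted p = 0.00269) and was stable. Cdkn1a, which encodes p21 and is a target of p53, was at 14866 and 15142 against 16618 and 16424 and was not called (log2 0.14). The cyclin D genes Ccnd1 (31347 and 31076 against 37716 and 37940, log2 0.28) and Ccnd2 (21755 and 25537 against 31605 and 30297, log2 0.39) rose. Those rises were lost without knockdown replicate 1 (limma adjusted p = 0.0701 and 0.0936) or 2 (0.0689 and 0.0504), and without control replicate 2 for Ccnd1 (0.0669) and control replicate 1 for Ccnd2 (0.0867). Ccnd2 also missed the threshold after quantile scaling (0.07). Of 28 p53 targets 2 rose and 1 fell, with a median of 0.14. Mdm2, the ubiquitin ligase that restrains p53, rose by 0.30, a call lost without control replicate 1 (0.144), knockdown replicate 1 (0.155) or 2 (0.0794).

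**Figure D3:**
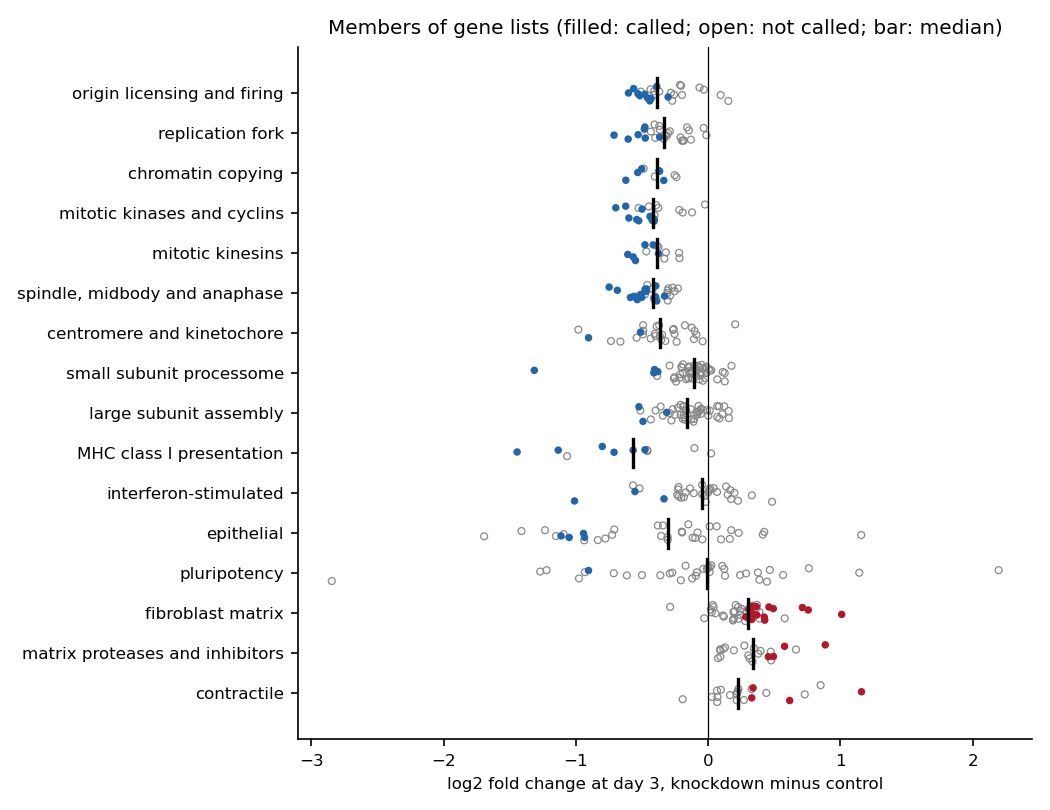
Log2 fold changes at day 3 of the members of 16 gene lists, 1 point per gene, filled where called (blue lower, red higher) and open where not called, with a bar at the median of each list. The division lists lie left of 0 almost throughout, with medians between -0.42 and -0.33, while the fibroblast matrix list and the matrix proteases lie right of 0, with medians of 0.30 and 0.34.

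Ribosome assembly factors, the group to which Ddx10 belongs, were shifted less than the division genes. Of 117 measured, 12 fell (10.3%, Ddx10 included, against 2.25% of all genes) and none rose, with a median of -0.13. Those 12 became 5, 2, 1 and 1 without control replicate 1, control replicate 2, knockdown replicate 1 and knockdown replicate 2. The small subunit processome, in which Ddx10 acts, had 4 falls among 51 genes and a median of -0.11, large subunit assembly 3 among 47 (-0.16), and RNA polymerase I with the nucleolus 5 among 19 (-0.20). The methyltransferase gene Fbl, of the box C/D particles that modify ribosomal RNA, was at 2399 and 2467 in the control and at 1861 and 1813 in the knockdown (log2 -0.41). Its partner genes Nop56 (-0.41) and Nop58 (-0.38) and the nucleolar genes Lyar (-0.60) and Ncl, which encodes nucleolin (-0.31), fell too. None of these 5 kept the call in every fit without 1 library. Fbl, Nop56 and Ncl lost it without any 1 of the 4 (limma adjusted p = 0.0943 to 0.166, 0.0733 to 0.225 and 0.0568 to 0.158). Lyar lost it without control replicate 2 (0.0894), knockdown replicate 1 (0.0733) or 2 (0.0689), and Nop58 without control replicate 1 (0.102), knockdown replicate 1 (0.105) or 2 (0.0745). Of the 117 factors 95 were below 0, and of the 51 processome genes 43, against 47.4% of all genes. Among processome members that differed little were Utp20 at 2624 and 2613 against 2441 and 2754, and Utp15 at 701 and 754 against 736 and 724. By size of p these ranked 46 and 51 of the 51.

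A further set of falls lay among genes that answer interferon, the antiviral and immune signal. Among them were genes known as targets of interferon gamma. Irf1, the transcription factor induced by that signal, was at 1490 and 1283 in the control and at 723 and 651 in the knockdown (log2 fold change -1.01, SE 0.13, limma adjusted p = 0.00117). The interferon-inducible GTPase gene Ifi47 was at 1435 and 1655 against 521 and 436 (log2 -1.69, limma adjusted p = 0.00137). H2-K1, a classical MHC class I heavy chain, was at 2452 and 2476 against 1701 and 1624 (log2 -0.57, limma adjusted p = 0.00365), and the related H2-Q4 had a log2 fold change of -1.11. Wars, the tryptophanyl-tRNA synthetase that interferon gamma induces, was at 5972 and 5916 against 3274 and 3010 (log2 -0.92). All 5 genes were stable, with no overlap between the arms, as in every called gene.

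Of 11 genes of MHC class I presentation 6 fell (Psmb9, Psmb8, Tap1, Psmb10, H2-K1 and Tapbp), where 2.25% of all genes did, and none rose, with a median of -0.57. The number was 3, 2, 2 and 1 without control replicate 1, control replicate 2, knockdown replicate 1 and knockdown replicate 2. The immunoproteasome subunit gene Psmb9 had values of 261 and 283 against 96 and 103 (log2 -1.44), and the peptide transporter gene Tap1 of 2762 and 2710 against 1666 and 1480 (-0.80). Psmb9 lost its call without any 1 library (limma adjusted p = 0.099 to 0.168) and Tap1 without knockdown replicate 2 (0.0504). B2m, the light chain, was at 14185 and 16412 against 15735 and 15264, with overlapping arms. The interferon-inducible GTPases, grouped by their symbols after their values were seen, numbered 15. All 15 were below 0, as were 47.4% of all genes, with a median of -0.99, and 7 were called lower, beside 2.25% of all genes. Besides Ifi47 these were Tgtp2 (-1.92), Igtp (-1.49), Gbp2 (-1.31), Gbp4 (-1.23), Tgtp1 (-0.99) and Irgm2 (-0.92). Those 6 calls were lost without control replicate 2 (limma adjusted p = 0.057 to 0.166), knockdown replicate 1 (0.0514 to 0.149) or 2 (0.0569 to 0.177), and all but that of Igtp without control replicate 1 (0.0555 to 0.122). Tgtp1 with Tgtp2, and the H2 heavy chain genes with each other, are close in sequence, and reads may have been shared between them in counting.

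In the wider interferon-stimulated list, of 31 genes 3 fell, with Irf1 and Stat2 among them, where 2.25% of all genes did. None rose, and the median was -0.05. The signal transducer gene Stat2 (-0.33) lost its place among the calls with any 1 of the 4 libraries left out (limma adjusted p = 0.15 to 0.21). Isg15, a ubiquitin-like antiviral protein, was at 1632 and 1657 against 1695 and 1606. Ifit1, which binds viral RNA, was at 1864 and 1881 against 1881 and 1886, and the RNA sensor gene Ddx58 at 4573 and 4526 against 4687 and 4683. The values of these 3 genes differed between the arms by less than 0.05 on the log2 scale.

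The promoters of Igtp, at chr11:58199306-58199605, and Irf1, at chr11:53769764-53770063 (both plus strand; GRCm38.p6, RefSeq), are shown for motifs known from interferon-responsive genes. Capitals mark a pair of GAAA runs with 2 bases between them, as in an interferon-stimulated response element (ISRE), or a match to TTCNNNGAA, a gamma-activated site (GAS).
Igtp: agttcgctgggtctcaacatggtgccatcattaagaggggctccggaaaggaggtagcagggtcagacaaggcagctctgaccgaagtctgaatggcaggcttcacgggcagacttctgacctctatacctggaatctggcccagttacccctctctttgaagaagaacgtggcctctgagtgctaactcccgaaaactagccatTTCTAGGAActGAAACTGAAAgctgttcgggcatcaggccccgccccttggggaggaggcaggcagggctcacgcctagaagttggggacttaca
Irf1: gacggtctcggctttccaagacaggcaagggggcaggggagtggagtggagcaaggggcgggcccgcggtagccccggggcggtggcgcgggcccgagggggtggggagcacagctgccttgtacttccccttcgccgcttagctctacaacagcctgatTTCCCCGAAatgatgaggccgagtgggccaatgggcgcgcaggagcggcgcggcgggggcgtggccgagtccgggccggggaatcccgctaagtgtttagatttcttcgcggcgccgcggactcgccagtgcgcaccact
Among 13 promoters of the GTPase and MHC class I genes that fell, 38.5% held the ISRE-like letters and 38.5% the GAS-like letters (5 promoters each), beside 2.98% and 6.94% of all promoters. These motifs were chosen after the falls were seen, and the Irf1 window holds the second motif alone.

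Genes that fibroblasts lose during reprogramming stood higher in the knockdown. Of 46 fibroblast matrix genes 14 rose, where 2.51% of all genes did, and none fell, with a median of 0.30. The number that rose was 10, 3, 4 and 3 without control replicate 1, control replicate 2, knockdown replicate 1 and knockdown replicate 2, and 10 after quantile scaling. Lox, the enzyme that cross-links collagen and elastin, was at 2462 and 2508 in the control and at 4076 and 4073 in the knockdown (log2 fold change 0.71, SE 0.08, limma adjusted p = 0.000678). Fbln5, an elastic fibre protein, was at 1100 and 1037 against 1885 and 1730 (log2 0.76, limma adjusted p = 0.000199), and Srpx, a matrix-associated protein, at 177 and 141 against 318 and 319 (log2 1.01, limma adjusted p = 0.00269). The 3 genes were stable, and the arms did not overlap in any of them, as in every called gene. The glycoprotein genes Thbs1 (0.49) and Tnc (0.46) rose by smaller steps. Thbs1 was no longer called without control replicate 2 (limma adjusted p = 0.0782), without knockdown replicate 2 (0.0638) and after quantile scaling (0.362), and Tnc without control replicate 2 (0.115), knockdown replicate 1 (0.073) or 2 (0.0868). The most abundant collagen gene of the list, Col1a2, was at 42381 and 40944 against 48275 and 50430 and was not called.

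All 21 matrix proteases and inhibitors were above 0, while 47.4% of all genes were below 0. Their median was 0.34, and 4 of them rose, where 2.51% of all genes did. The number that rose was 3 without control replicate 1 and 2 without any other library of day 3. Adamts5, an aggrecan-cleaving protease, was at 375 and 367 in the control and at 667 and 706 in the knockdown. Its log2 fold change of 0.89 (SE 0.07, limma adjusted p = 4.75e-05) had the smallest p of the stable genes. Timp3, an inhibitor of such proteases, was at 14073 and 13853 against 18247 and 20116 (log2 0.46, limma adjusted p = 0.00321) and was stable. The plasminogen activator gene Plau rose by 0.58, a call lost without any 1 library (limma adjusted p = 0.082 to 0.25). Ctgf, a matricellular growth factor that TGF-beta induces, was at 1284 and 1038 against 1878 and 1993 (log2 0.75, limma adjusted p = 0.00117) and was stable. In the TGF-beta list as a whole 4 of 19 rose and none fell, with a median of 0.18. Of all genes, 2.51% rose and 2.25% fell. Contractile genes had 4 rises among 21 and a median of 0.22, and the count was 2 without control replicate 1 and 0 without any other library.

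Of 10 regulators and markers of the mesenchymal state 3 rose, where 2.51% of all genes did. These were Cdh2, Fn1 and Zeb2 (log2 0.26, 0.30 and 0.35). All 3 lost the call without any 1 library (limma adjusted p = 0.0808 to 0.149, 0.0643 to 0.23 and 0.0647 to 0.179), and Fn1 missed it after quantile scaling (0.0627). Other stable rises were those of cell surface and secreted proteins. They comprised the adhesion receptor gene Vcam1 (log2 0.59), the proteoglycan gene Gpc4 (0.60), the growth factor gene Pdgfd (0.64), the protease gene Prss23 (0.55), Adamtsl1 (0.63) and Mfap3l (0.80). Serpinb9b, a serpin, was at 867 and 855 against 1518 and 1485 (log2 fold change 0.80, SE 0.08, limma adjusted p = 0.000117). The metabolic enzyme genes Gda (log2 0.78) and Aass (0.75), with Zfand2a (0.56), Vopp1 (0.56) and Klhdc8a (0.57), complete the stable rises apart from Lpl, which is given with the adipocyte markers.

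Epithelial genes were shifted the other way, unevenly. Of 35 measured, 4 fell, where 2.25% of all genes did, and none rose, with a median of -0.31. The number that fell was 2 without control replicate 1, control replicate 2 or knockdown replicate 2, and 1 without knockdown replicate 1. Krt8, a keratin of simple epithelia, was at 1100 and 951 in the control and at 519 and 470 in the knockdown (log2 fold change -1.05, SE 0.13, limma adjusted p = 0.00126) and was stable. Cdh1, which encodes E-cadherin, was at 2680 and 3083 against 1273 and 1389 (log2 -1.11). Cdh1 lost its call without any 1 library (limma adjusted p = 0.0765 to 0.171). The tight junction genes Lsr (-0.94) and Cldn3 (-0.93) lost theirs without control replicate 2 (0.101 and 0.057) or knockdown replicate 1 (0.141 and 0.0819), and Cldn3 also without control replicate 1 (0.261) or knockdown replicate 2 (0.259). Krt18, the usual partner of Krt8, went the other way at 345 and 292 against 421 and 433 (log2 0.42) and was not called. The desmosome gene Dsp, at 4540 and 4518 against 5179 and 5459, was not called either.

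Pluripotency genes were mostly low at day 3 and had a median near that of all genes. Of 37 measured, 1 fell and none rose, with a median of -0.01, and Dppa3 and Dppa5a were at 0 in all 4 libraries. The fall was that of Klf2, at 221 and 241 in the control and at 126 and 120 in the knockdown (log2 fold change -0.91, SE 0.13, limma adjusted p = 0.00212), and it was stable. Nanog was at 5 or less in each library. Tdh, the threonine dehydrogenase of mouse embryonic stem cells, was at 1637 and 1618 against 1698 and 1585, and L1td1 at 1934 and 2340 against 2021 and 1897, both with overlapping arms. Among the reprogramming factors, whose viral and cellular copies cannot be separated in these counts, Sox2 was at 9796 and 9255 against 9426 and 9178, and Klf4 at 17311 and 17281 against 16299 and 16180. Pou5f1, which encodes Oct4, was at 14984 and 15461 against 18473 and 17334 (log2 0.23, limma adjusted p = 0.0434). This call was lost without any 1 library (0.0981 to 0.294), after quantile scaling (0.128) and with the replicate block (0.0577). Of 9 DNA methylation genes 4 fell (Uhrf1, Dnmt1, Tdg and Dnmt3b), where 2.25% of all genes did. Uhrf1 and Dnmt1 are also counted among the S phase falls above. Dnmt3b, the de novo methyltransferase, was at 98 and 106 against 45 and 59 (log2 -0.97), a call lost without control replicate 1 (0.0681), control replicate 2 (0.128) or knockdown replicate 1 (0.178). None of 18 Polycomb genes was called at an adjusted p under 0.05.

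Among the signalling lists, 4 of 24 immediate early genes fell and none rose, with a median of -0.13. Of all genes, 2.25% fell and 2.51% rose. Immediate early genes answer growth signals and handling within minutes. Fos was at 1272 and 1233 in the control and at 661 and 685 in the knockdown (log2 -0.90), and Egr1 at 2754 and 2683 against 1769 and 1701 (-0.65). Fosb, at 158 and 229 against 66 and 56, had the largest fall of the list (-1.63). Fosb was no longer called without control replicate 2 (limma adjusted p = 0.0629), Fos without control replicate 2 (0.0564), knockdown replicate 1 (0.0728) or 2 (0.0504), and Egr1 without any 1 library (0.109 to 0.144). The related Jun, at 3140 and 2984 against 3332 and 3297, was not called. In the Wnt list of 30 genes 4 fell and 3 rose, with a median near 0. The transcription factor genes Lef1 (-1.12) and Tcf7 (-0.56) and the ligand gene Wnt5b (-0.83) fell, and the ligand genes Wnt5a (0.46) and Wnt9a (0.63) rose. None of the 5 remained called without control replicate 2 (limma adjusted p = 0.0898, 0.161, 0.131, 0.132 and 0.081) or knockdown replicate 1 (0.0514, 0.177, 0.135, 0.11 and 0.0683). They also lost it without knockdown replicate 2 (0.0713, 0.0745, 0.0906, 0.195 and 0.0713), and Tcf7, Wnt5b and Wnt5a without control replicate 1 (0.0618, 0.0717 and 0.142). Celsr1, a cadherin of the planar polarity pathway outside the lists, was stable, at 549 and 542 against 218 and 225 (log2 fold change -1.30, SE 0.12, limma adjusted p = 8.72e-05).

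By size, and among called genes whose 4 libraries averaged at least 50, the falls began with Lmln (log2 -2.13), Col15a1 (-2.01), Il18bp, Tgtp2, Ifi47, Fosb, Gpx2 (-1.61), Klf8 (-1.59), Dennd3 (-1.57) and Igtp, followed by Psmb9, Dio3, Sgpp2 (-1.40), Gbp2 and Ddx10. Dio3, which inactivates thyroid hormone, was at 733 and 822 against 277 and 300 (log2 fold change -1.43, SE 0.20, limma adjusted p = 0.00173) and was stable. Col15a1, a basement membrane collagen, was at 394 and 249 against 77 and 77, and the interleukin 18 binding protein gene Il18bp at 155 and 174 against 42 and 39. Klf8 was at 1152 and 348 against 203 and 216, so that its size rests on control replicate 1. Lmln, Il18bp, Dennd3 and Sgpp2 lost their calls without any 1 library (limma adjusted p = 0.0923 to 0.191, 0.095 to 0.161, 0.0728 to 0.121 and 0.117 to 0.27). Col15a1 and Klf8 lost theirs without control replicate 1 (0.0901 and 0.057), knockdown replicate 1 (0.0925 and 0.14) or 2 (0.085 and 0.107), and Gpx2 without control replicate 2 (0.0743) or knockdown replicate 2 (0.0862). Klf8 also missed the threshold in a fit of the 4 libraries alone (0.406), and Gpx2 (0.245) and Sgpp2 (0.457) with a pseudocount of 0.1. Below that mean, the homeobox gene Tlx2 was at 60 and 57 against 11 and 17 (log2 -2.05) and was stable. The transcription factor gene Foxc1 (-0.67), Tppp3 (-0.75) and the small nucleolar RNA host gene Snhg5 (-0.69) complete the stable falls.

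The largest rises on the same terms were of low genes. They were Prr32 (log2 1.32), Dguok (1.30), Nup62cl (1.25), Oscp1 (1.18), Des (1.16), Col28a1 (1.13), Pclo (1.12), Mdga1 (1.06), Ivl (1.05), Srpx, Edn2 (1.01), Gabra2 (1.01), Rasgrp3 (0.99), Corin (0.96) and Synpo2l (0.92). Dguok, a mitochondrial nucleoside kinase, was at 90 and 107 in the control and at 280 and 212 in the knockdown, and Des, the muscle filament protein desmin, at 35 and 38 against 76 and 89. Of these 15, Srpx alone kept its call in every fit without 1 library. Prr32, Oscp1, Des, Pclo and Mdga1 lost it without any 1 library (limma adjusted p = 0.0887 to 0.2, 0.0711 to 0.298, 0.124 to 0.191, 0.0514 to 0.2 and 0.14 to 0.262). Nup62cl, Col28a1, Ivl, Edn2, Rasgrp3 and Corin lost it without control replicate 2 (0.266, 0.0828, 0.276, 0.363, 0.165 and 0.0658), knockdown replicate 1 (0.0955, 0.0646, 0.177, 0.251, 0.0706 and 0.0501) or 2 (0.191, 0.0893, 0.142, 0.158, 0.137 and 0.061). Gabra2 and Synpo2l lost it without control replicate 1 (0.0728 and 0.107), knockdown replicate 1 (0.0668 and 0.0925) or 2 (0.0718 and 0.0872), and Dguok without control replicate 1 (0.061) or knockdown replicate 1 (0.097). Edn2 also missed the threshold with the replicate block (0.0656), in the fit of the 4 libraries alone (0.0763), after quantile scaling (0.0555) and with a pseudocount of 0.1 (0.0554). Oscp1 missed it with the block (0.0623), after quantile scaling (0.0501) and with that pseudocount (0.0518), as Mdga1 did with that pseudocount (0.0526), and Nup62cl in the fit of the 4 libraries (0.0613).

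Markers of other cell types that a fibroblast culture could hold were summed in each library. The 17 macrophage and blood markers summed to 1187 and 1234 in the control and to 1486 and 1403 in the knockdown, with Tyrobp at 0 in all 4 libraries and 9 of the 17 under 10 in each. Among the genes that define the lineage, Csf1r was at 8 and 14 against 10 and 18, and none of the 17 was called. The 6 adipocyte markers summed to 1408 and 1491 against 2241 and 2228, of which most was Lpl, the lipoprotein lipase, at 1298 and 1378 against 2070 and 2075 (log2 0.63, limma adjusted p = 0.00212), a stable rise. Pparg, the master regulator of fat cells, was at 25 and 39 against 49 and 38, and 4 listed genes (Adipoq, Cfd, Lep and Plin1) were not in the table. The 10 endothelial markers summed to 3878 and 4159 against 3944 and 4048, and 1 of them, the growth factor receptor gene Kdr, rose from 167 and 168 to 277 and 278 (log2 0.73, limma adjusted p = 0.0101), a call lost without any 1 library (0.0559 to 0.0783). The 6 skeletal muscle markers summed to 77 and 70 against 113 and 126, and the 10 extraembryonic markers to 2399 and 2120 against 2144 and 2420. The 12 neuronal genes summed to 13158 and 13419 against 15811 and 15081. Most of them did not share that rise: 9 of the 12 were below 0, against 47.4% of all genes, and their median was -0.27. Of the 12, 2 rose (Nefl and Nefm) and 2 fell (Stmn2 and Tubb3), where 2.51% and 2.25% of all genes did. Those calls were lost without knockdown replicate 1 (limma adjusted p = 0.106, 0.073, 0.165 and 0.113) and, except for Nefm, without control replicate 2 (0.0782, 0.128 and 0.097). Stmn2 and Tubb3 lost theirs also without control replicate 1 (0.131 and 0.104) or knockdown replicate 2 (0.137 and 0.121). The part of other cells in the rises and falls above was not tested.

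The control course offers a ruler that uses no library of day 3. Genes were sorted by how the control changed from day 1 to day 5, where 56.5% of genes were called. Of 1402 genes called as falling along that course by at least 1 on the log2 scale, 134 (9.56%) were higher in the knockdown at day 3 and 38 lower, and their median difference was 0.25. Of 2571 called as rising by as much, 24 were higher and 96 (3.73%) lower, with a median of -0.07. The remaining 11784 genes had 238 higher and 221 lower and a median of 0.01. Genes with the steepest falls in the control, beyond 4, had a median of 0.50 at day 3 (36 genes) and those with the steepest rises, of 4 and over, a median of -0.44 (361 genes). The mitotic and S phase lists did not follow this pattern. Their median changes along the course lay between -1.08 (spindle and anaphase) and -0.50 (condensin and cohesin), yet they stood lower in the knockdown at day 3. The remaining class held 62.3% of the lower genes and 60.1% of the higher genes, below its share of 74.8% of all genes. It includes genes that were called along the course but changed by less than 1. Placed on the line from control day 1 (at 0) to control day 5 (at 1), the control libraries of day 3 stood at 0.554 and 0.563 and the knockdown libraries at 0.491 and 0.488. The difference was -0.069 and the arms did not overlap, but with 2 against 2 an exact two-sided permutation test gives p = 0.333, the smallest it can give.

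**Figure D4:**
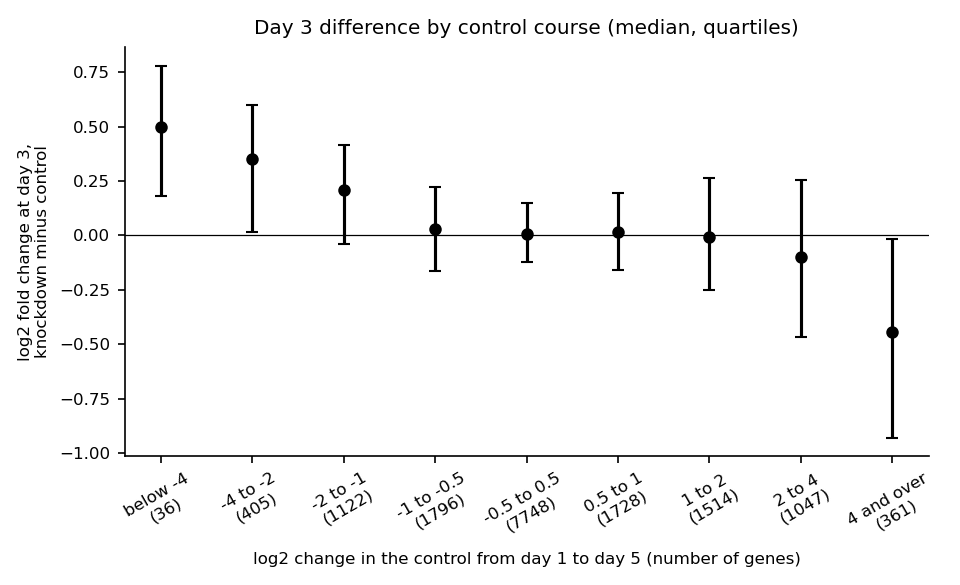
Median (points) and quartiles (bars) of the log2 fold change at day 3, knockdown minus control, for genes binned by their log2 change in the control from day 1 to day 5, with the number of genes in each bin. The medians run from 0.50 in the genes that fell most to -0.44 in those that rose most, pass through 0.35 and 0.21 in the next bins of falling genes, and lie between -0.10 and 0.03 in the others.

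Beside the other days, the division genes were lowest at day 3. The median of the mitotic genes was 0.04, -0.18, -0.40, -0.07 and -0.07 at days 0, 1, 3, 5 and 7, and that of the S phase genes -0.09, -0.20, -0.37, -0.01 and -0.01. Of the mitotic genes 5 fell at day 5, where 2.9% of all genes did, and 1 at day 1, where 0.121% of all did. Fibroblast matrix genes had a median of -0.02 at day 1, 0.30 at day 3 and 0.40 at day 5, and matrix proteases 0.00, 0.34 and 0.60. Epithelial genes had 0.08, -0.31 and -0.85, and the MHC class I list -0.23, -0.57 and -0.94. Of the 396 genes higher at day 3, 241 were also called higher at day 5, where 5.83% of all genes were, and of the 355 lower genes 98 were also called lower there (2.9% of all). Further, 350 of the 751 were called at none of days 0, 1, 5 and 7, at which 3.31%, 0.146%, 8.73% and 6.17% of all genes were called. The days share no libraries with each other, but all went into 1 fit. The 2 control libraries of day 1 were the least alike, with a median absolute log2 difference of 0.252, beside 0.118 to 0.162 in the other groups. The few calls at day 1 therefore do not show that the arms differed little on that day.

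**Figure D5:**
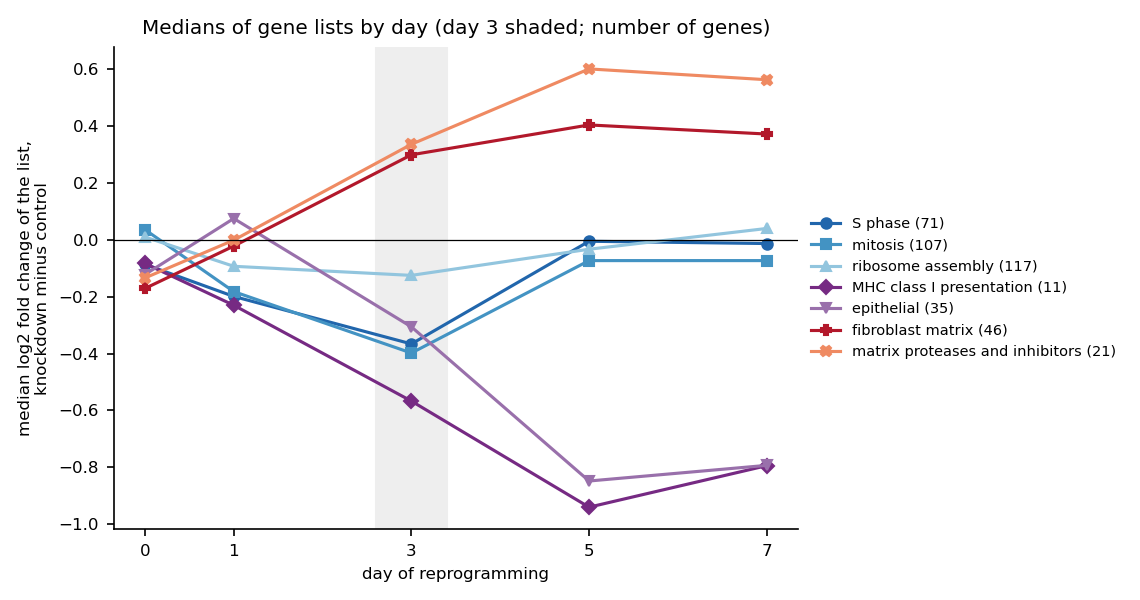
Median log2 fold change, knockdown minus control, of 7 gene groups at days 0, 1, 3, 5 and 7, with the number of measured genes of each group in the legend and day 3 shaded. The S phase and mitosis medians are lowest at day 3 (-0.37 and -0.40) and near 0 at days 5 and 7, while the matrix medians rise and the epithelial and MHC class I medians fall on to day 5.

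The differences between days were tested for single genes in the same fit. The day 3 difference departed from the day 1 difference in 28 genes (0.178%), from the day 5 difference in 35 (0.222%) and from the mean of the other days in 3 (0.019%). The 3 were Gpnmb, a membrane glycoprotein gene that lay higher at day 3 than on the other days (0.71, SE 0.09, limma adjusted p = 0.00695, lost without knockdown replicate 2 of day 3 at 0.0689), Stmn2 and Hmgb2. For Hmgb2, the log2 fold change at day 3 lay 0.65 below the mean of the other days (-0.65, SE 0.09, limma adjusted p = 0.0112). That call was lost without control replicate 2 (0.0718), knockdown replicate 1 (0.0853) or 2 (0.0977) of day 3. Fbln5 differed from its day 1 value by 0.95 (SE 0.11, limma adjusted p = 0.0053) and kept that call in each of 8 fits without 1 library of either day, but with library weights, under which the test against day 1 called 0 genes, its adjusted p was 0.0568. In the test against day 5 no mitotic gene was called and 1 S phase gene was. This was Dna2, a nuclease of Okazaki fragment processing, at 351 and 384 against 242 and 241 on day 3, with a log2 fold change 0.96 below that of day 5 (-0.96, SE 0.18, limma adjusted p = 0.0415). It was picked after its values were seen, and the call was lost without any 1 of the 8 libraries of both days (0.077 to 0.161). For the other members of those lists a difference from day 5 was not shown gene by gene.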

How the data were processed

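RNA was measured in 20 libraries of 10 groups (2 arms, 5 days), 2 per group, assigned by their titles. The deposited table holds 1 signal value per gene and library, a read count that the authors normalized, since the values are not whole and whole reads could not be recovered (40.2% to 57.7% of low values of the day 3 libraries lay within 0.1 of a whole step). Build mm10 is named with DESeq2 1.22.0, RSEM 1.2.22, STAR 2.5.2a and Trim Galore 0.4.4 per the submitters' processing notes. Their settings, the annotation and the normalization step are not given in the sources used here, and the depth is unknown.

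From these values, log2(value + 1) was fitted with limma 3.58.1 in R 4.3.3 (10 group means over all 20 libraries, with the trend and robust options and 10 degrees of freedom for the residuals), with two-sided tests and Benjamini-Hochberg adjustment over 15757 genes. Genes below a value of 1 in all but 1 library would have been dropped, and none was. On simulated data with the spread of these libraries, the fit recovered 87% of genes changed by 1 and 50% of those changed by 0.5 on the log2 scale, with 5 false calls. Alternatives were other pseudocounts, filters, scalings, a replicate block, library weights, only the 4 libraries of day 3, limma without its trend and robust settings, and leaving out each library.

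The comparison and the gene lists were chosen with earlier results of these data known. The rule for named genes took Ddx10, the 15 largest rises and the 15 largest falls (called, averaging at least 50 at day 3), in each list the 4 genes of smallest p, and all members of lists of 12 or fewer, of which not all are printed. The stable genes, the GTPase family, the interferon motifs and examples of genes that did not differ were chosen after their values were seen. A few results are not reported here.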

Additional observations from a re-analysis of the deposited data

Results flagged for a closer look

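The genes below had a day 3 difference between the arms that departed from that of another day in the test of the difference itself (limma adjusted p under 0.05). Values are log2 fold changes at day 3 minus those at the other day, and the libraries without which a call was lost are given with the adjusted p. These departures add to the rises and falls of day 3 given above.

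Against day 1, the AP-1 gene Fosb (-2.49) and the glutathione peroxidase gene Gpx2 (-2.42) lay lower at day 3, and Dguok (2.07), Srpx (1.24), Ctgf (0.98) and Fbln5 (0.95) higher. With library weights, which were lowest for the 2 control libraries of day 1 (0.352 each), none of these 6 was called. Fbln5 kept the call in all 8 fits without 1 library, and its adjusted p with library weights was 0.0568. Ctgf lost it without knockdown replicate 1 of day 1 (0.0502) or knockdown replicate 2 of day 3 (0.0573). Fosb lost it without control replicate 2 (0.103) or knockdown replicates 1 (0.076) and 2 (0.0704) of day 3, or knockdown replicate 1 of day 1 (0.0827). Gpx2, Srpx and Dguok kept it in only 3, 3 and 2 of the 8 fits, with adjusted p up to 0.159, 0.159 and 0.149.

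Against day 5, Egr1 (-1.48), Fos (-1.36), Plau (-1.2), Stmn2 (-0.98), a neuronal microtubule protein, and Dna2 (-0.96) lay lower at day 3, and the keratin gene Krt18 (1.47) higher. Krt18 was higher in both knockdown libraries at day 3, though not called, and lower at day 5, where the log2 fold change was -1.04. Stmn2 kept the call in all 8 fits. Egr1 and Krt18 kept it in 4 each, with adjusted p up to 0.0817 and 0.0631, Plau in 2 (up to 0.155), Fos in 1 (up to 0.124) and Dna2 in none of them (up to 0.161).

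Against the mean of the other days, Stmn2 (-0.65) and Hmgb2 (-0.65) lay lower at day 3, and Gpnmb (0.71) higher. Gpnmb kept the call in 19 of 20 fits without 1 library, and lost it without knockdown replicate 2 of day 3 (0.0689). Stmn2 lost that call without control replicate 1 (0.0889), control replicate 2 (0.0718), knockdown replicate 1 (0.138) or 2 (0.0977) of day 3. Hmgb2 lost it without control replicate 2 (0.0718) or without either knockdown library of day 3 (0.0853 for replicate 1, 0.0977 for replicate 2). The cause of these departures was not tested.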

How the results depend on the processing

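Leaving out 1 library of day 3 brought the 751 calls down to between 74 and 296, and library weights raised them to 1390. Other settings gave 506 to 1054, with 826 after quantile scaling (406 higher, 420 lower). The test against day 1 (28 genes) gave 0 with library weights (limma, 1038 at an unadjusted p under 0.05), 14 after quantile scaling and 3 to 226 without 1 library. The test against day 5 (35 genes) gave 164 with library weights, 62 after quantile scaling and 5 to 35 without 1 library. The test against the mean of the other days (3 genes) gave 70 with library weights, 21 among genes with a mean of at least 50, 18 after quantile scaling and 1 to 108 without 1 library. The cause was not tested.

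Replicate numbers were not treated as pairing: deviations of libraries with the same number correlated at 0.016 at day 3 and between -0.141 and 0.178 at the other days. With a replicate block the counts were 644 at day 3, 19 against day 1, 29 against day 5, 3 against the other days and 8791 in the control course.

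Of 124 named genes called at day 3, 78 lost the call in at least 1 setting, 25 of them in limma without its trend and robust settings, and none of the 124 changed direction. Among genes not called, the sign was not fixed. B2m and Isg15 were at -0.007 each after quantile scaling. Without 1 library in turn, the log2 difference ranged from -0.083 to 0.128 for B2m, from -0.035 to 0.044 for Isg15, from -0.152 to 0.106 for Cdk1, from -1.063 to 0.313 for Cenpe, from -1.306 to 0.326 for Cenpf and from -1.001 to 0.158 for Mki67. The range was -0.13 to 0.724 for Csf1r, -0.257 to 0.017 for L1td1, -1.048 to 0.326 for Nanog, -0.026 to 0.216 for Orc1, -0.075 to 0.007 for Sox2, -0.038 to 0.061 for Tdh, -0.046 to 0.059 for Utp15 and -0.101 to 0.073 for Utp20.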
